A study of Mus musculus with 6 samples.

Results

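RNA from the loci of 5 erythroid genes, Gata1, Zfpm1, Car1, Car2 and Ppox, was followed through a telomere capture experiment in MEL cells, a mouse erythroleukemia line. The deposited tables give reads for 7959 transcript models, which are assembled stretches of transcribed sequence and not annotated genes. A model was taken as a member when at least 50% of its exon bases lay in the span of one of the 5 genes, and 23 models met this rule: 3 in Gata1, 6 in Zfpm1, 11 in Car1, 2 in Car2 and 1 in Ppox. The same 23 were found when any base or every exon base had to lie in the span.

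The cells were labelled as strain C57BL/6, were fixed with formaldehyde, and carried no other treatment in the labels. In 3 groups of 2 libraries each, RNA was sequenced from the input chromatin, from chromatin captured with masked TH59-DB, the negative control probe, and from chromatin captured with the telomere probe TH59-DB, which is a pyrrole-imidazole polyamide. In each group 1 title carries the number 2 and the other none, and the unnumbered one is called library 1. Whether the 2 libraries of a group stem from different cultures is not stated, and the p-values therefore cover just the spread between these libraries, which may be technical.

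Gata1 is the zinc finger transcription factor that drives erythroid gene expression, and Zfpm1, also called Fog1, is the cofactor that binds it. Car1 and Car2 are carbonic anhydrases, which interconvert carbon dioxide and bicarbonate in red cells, and lie in the same gene cluster on mouse chromosome 3. Ppox encodes protoporphyrinogen oxidase, an enzyme of the heme pathway in mitochondria. Immature, unspliced transcripts are held on chromatin while they are made, whereas spliced mRNA is mostly cytoplasmic.

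Per 1000000 reads, without further scaling, the spliced models of Car1 and Zfpm1 were lower in TH59-DB than in both other groups, without overlap. Car1 model 1 averaged 40.9 CPM in TH59-DB against 233 CPM in the input. The single-exon Zfpm1 models 5 and 6 were lower as well. Reads in the exons of a spliced model can also come from unspliced RNA, so spliced RNA itself was not measured. No model of the 5 genes passed the test in any comparison. The reads in Car1 models that lie between exons were at about the same level in TH59-DB as in the input. The share of Car1 reads between exons was therefore lowest in the input, at 33.7% ± 6.00 (SD, n = 2), and highest in TH59-DB, at 70.2% ± 3.13 (SD, n = 2). Most of the other models had few reads, and in these the 2 libraries of a group often differed more than the groups did.

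Library totals were 1803723 to 3122558 reads, of which 35.7% to 69.2% lay in models, and a single read was worth 0.320 to 0.554 CPM, where CPM is reads in every 1000000 of the total. Masked TH59-DB 1 stood apart, with 4341 of the 7959 models at 0 reads and 50.8% of its total in 1 model. TH59-DB 1 stood apart in the other direction, with no model under 5 reads. Of the 23 members, 11 were at 0 in masked TH59-DB 1, while the lowest member in TH59-DB 1 had 10 reads. Of 15 erythroid markers, 7 had a model (the 5 genes, Klf1 and Epor), and the globins and Alas2 were among the 8 for which none was analysed here. Of 14 markers of other blood cells, Itga2b and Laptm5 had a model, and the list summed to 4.06 to 49.4 CPM per library.

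The members were mostly short pieces. Their lengths ran from 160 to 1729 bases; 20 had 1 exon and 3 were spliced. The spliced ones were Zfpm1 model 1, with 8 exons, and Car1 models 1 and 4, with 4 and 3 exons. The 20 single-exon models carry a strand in the files of library 1 and none in those of library 2, so their strand was not settled. All positions are on mm10. The RefSeq table used for the spans gives no exons, so between exons below means between the exons of the deposited spliced models.

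Promoter windows of 300 bases (250 before and 50 after the start site) were found for 3 of the 5 genes in RefSeq's GRCm38.p6, the build called mm10. They are shown because the captured target, the mouse telomere, is a repeat of TTAGGG, and because GATA factors read short GATA-type sites. Capitals mark TTAGGG and its reverse complement CCCTAA, and all sequences read 5′ to 3′ along the gene's strand. The Gata1 window lies at chrX:7967861-7968160 on the minus strand, the Zfpm1 window at chr8:122281891-122282190 on the plus strand and the Ppox window at chr1:171281137-171281436 on the minus strand.
Gata1: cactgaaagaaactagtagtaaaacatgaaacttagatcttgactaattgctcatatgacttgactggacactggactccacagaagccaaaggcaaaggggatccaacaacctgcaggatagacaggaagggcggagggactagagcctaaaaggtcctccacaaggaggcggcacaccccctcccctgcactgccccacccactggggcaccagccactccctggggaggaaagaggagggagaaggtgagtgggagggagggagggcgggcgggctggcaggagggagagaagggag
Zfpm1: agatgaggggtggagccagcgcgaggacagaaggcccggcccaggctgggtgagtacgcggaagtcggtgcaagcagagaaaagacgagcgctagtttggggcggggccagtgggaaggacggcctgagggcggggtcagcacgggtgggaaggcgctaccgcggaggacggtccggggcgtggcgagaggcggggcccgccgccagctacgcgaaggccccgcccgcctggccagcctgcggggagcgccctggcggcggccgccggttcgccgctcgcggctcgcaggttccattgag
Ppox: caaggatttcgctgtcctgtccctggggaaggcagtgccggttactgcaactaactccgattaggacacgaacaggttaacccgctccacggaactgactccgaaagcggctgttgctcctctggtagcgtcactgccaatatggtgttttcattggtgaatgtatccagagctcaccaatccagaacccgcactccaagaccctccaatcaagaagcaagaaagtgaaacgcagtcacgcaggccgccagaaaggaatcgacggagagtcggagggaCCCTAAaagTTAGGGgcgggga
The Ppox window held the unit 2 times in opposite orientation, at bases 29 to 34 and 38 to 43 counted from the start site, and the Gata1 and Zfpm1 windows held none. A match on either strand was present in 10.6% of the 32851 RefSeq windows. The GATA-type sites searched on both strands were AGATAA with its variant AGATAG, and TGATAA with its variant TGATAG. They were in none of the 3 windows and in 29.8% of all windows. No member model overlapped these windows. The nearest was 220 bases from the Zfpm1 start site, and the Ppox model was 663 bases and Gata1 model 3 was 1853 bases inside the gene.

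**Figure D1:**
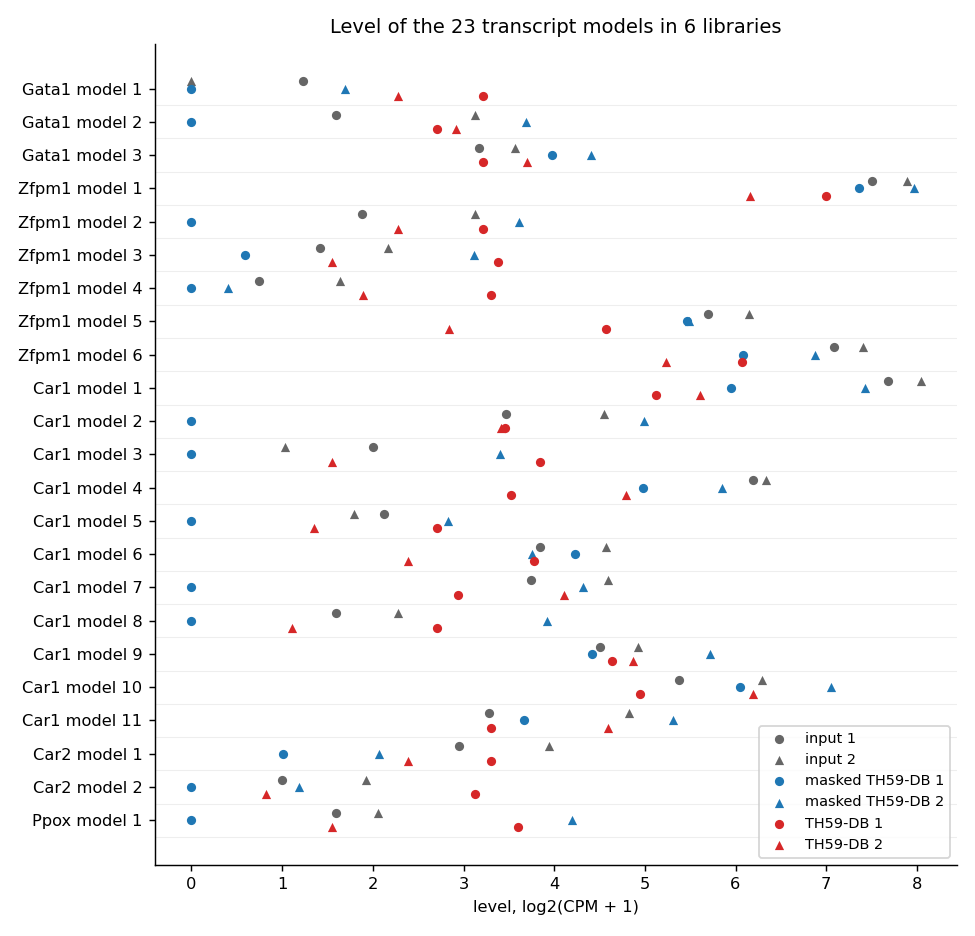
Level of each of the 23 models as log2(CPM + 1), with 1 point per library, coloured by group and shaped by library number. The red TH59-DB points of Car1 models 1 and 4 and Zfpm1 models 1 and 5 lie to the left of the other groups, and 11 models have a masked TH59-DB 1 point at 0.

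Car1 model 1 (chromosome 3, 14766483 to 14770905, minus strand, 487 bases in 4 exons) was the most abundant member per length in the input. It stood at 204 and 263 CPM in the input, 60.9 and 171 CPM in masked TH59-DB, and 33.8 and 47.9 CPM in TH59-DB. The 3 groups did not overlap, with the input highest and TH59-DB lowest. The mean was 233 ± 42.0 CPM in the input, 116 ± 78.1 CPM in masked TH59-DB and 40.9 ± 9.95 CPM in TH59-DB (SD, n = 2 each), so the ratio of input to TH59-DB was 5.71. The fitted log2 fold change was -2.34 (SE 0.75) against the input, with an edgeR adjusted p of 0.153, and -1.04 (SE 0.72) against masked TH59-DB, with an edgeR adjusted p of 0.816. These sizes depended on single libraries: leaving out TH59-DB 1 gave -1.46 against the input and -0.31 against masked TH59-DB, and leaving out TH59-DB 2 gave -3.57 and -2.14.

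Car1 model 4 (14777793 to 14808365, minus strand, 259 bases in 3 exons) had the same order of groups. It stood at 72.0 and 79.9 CPM in the input, 30.4 and 56.7 CPM in masked TH59-DB, and 10.5 and 26.7 CPM in TH59-DB, again without overlap. Its log2 fold change was -1.77 (SE 0.77) against the input, with an edgeR adjusted p of 0.325, and -0.71 (SE 0.76) against masked TH59-DB, with an edgeR adjusted p of 0.928.

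The other 9 Car1 models were single exons between those of models 1 and 4. The most abundant was model 10 (14801718 to 14802689), which encloses the pseudogene Gm16399 whole, 418 of its 972 bases, so its reads cannot be assigned to Car1 with certainty. Model 10 stood at 40.5 and 77.4 CPM in the input, 65.5 and 131 CPM in masked TH59-DB, and 29.9 and 72.2 CPM in TH59-DB. The groups overlapped, and the log2 fold changes were 0.13 (SE 0.75) against the input and -0.42 (SE 0.75) against masked TH59-DB. Model 9 (14797290 to 14797975) was level across the input and TH59-DB, at 21.8 and 29.4 CPM in the input, 20.3 and 51.6 CPM in masked TH59-DB, and 23.8 and 28.2 CPM in TH59-DB. Model 11 (14806282 to 14806493) stood at 8.71 and 27.3 CPM in the input, 11.7 and 38.8 CPM in masked TH59-DB, and 8.87 and 23.2 CPM in TH59-DB. In models 9, 10 and 11 library 2 was above library 1 in every group.

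Model 6 (14781329 to 14781550) was below the input in both TH59-DB libraries, at 13.4 and 22.8 CPM in the input, 17.8 and 12.5 CPM in masked TH59-DB, and 12.8 and 4.25 CPM in TH59-DB. Model 2 (14771035 to 14771260) was also below the input, at 10.1 and 22.4 CPM there and 9.98 and 9.66 CPM in TH59-DB, but the gap between input 1 and TH59-DB 1 was under 1 read. In masked TH59-DB model 2 had 0 and 30.7 CPM. Models 3, 5, 7 and 8 had likewise 0 reads in masked TH59-DB 1 and 19 to 59 reads in masked TH59-DB 2. Model 7 (14788546 to 14788705) stood at 12.4 and 23.1 CPM in the input and 6.65 and 16.2 CPM in TH59-DB, so these groups overlapped.

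Models 3 (14774344 to 14774705), 5 (14779712 to 14779903) and 8 (14792154 to 14792429) were the scarcest of Car1, with 3 to 11 reads in the input libraries. Model 3 had 24 and 5 reads in TH59-DB, model 5 had 10 and 4, and model 8 had 10 and 3. In each of them TH59-DB 1 was the higher of the 2 TH59-DB libraries and masked TH59-DB 2 the higher of the 2 masked libraries.

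**Figure D2:**
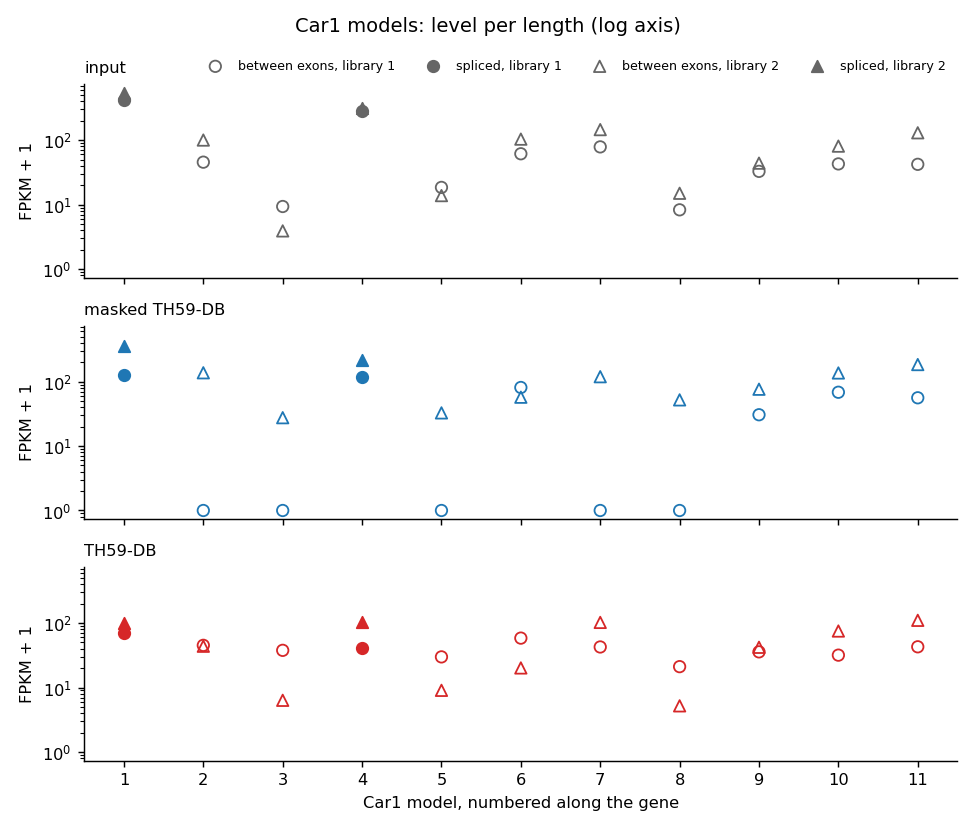
FPKM + 1 (log axis) of the 11 Car1 models, numbered along the chromosome, in 1 panel per group, with circles for library 1 and triangles for library 2. Filled symbols are the 2 spliced models and open symbols the models between exons; in the input the filled symbols lie above all open ones, at 278 to 540 FPKM, whereas in TH59-DB they lie at 40.7 to 103 FPKM, among the open ones.

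Summed by class, the 2 spliced Car1 models stood at 276 and 343 CPM in the input, 91.3 and 228 CPM in masked TH59-DB, and 44.4 and 74.5 CPM in TH59-DB. The 9 models between exons summed to 115 and 210 CPM in the input, 115 and 314 CPM in masked TH59-DB, and 116 and 158 CPM in TH59-DB. The groups of the spliced sum did not overlap, and those of the between-exon sum did. Per length, the spliced models were at 415 ± 63.7 FPKM and those between exons at 49.1 ± 20.2 FPKM in the input, against 79.7 ± 28.6 FPKM and 41.5 ± 8.96 FPKM in TH59-DB (SD, n = 2 each).

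The share of Car1 reads that lay between exons needs no scaling between libraries. It was 29.5% (95% exact interval 26.9% to 32.2%) and 38.0% (35.6% to 40.4%) in the input. In masked TH59-DB it was 55.8% (50.8% to 60.7%) and 57.9% (55.5% to 60.3%). In TH59-DB it was 72.4% (66.9% to 77.5%) and 68.0% (64.1% to 71.7%). The 3 groups did not overlap, and these intervals, like all given here, cover counting error only. The share does depend on the low counts of a library. In TH59-DB 1, where no model of the series was under 5 reads, the between-exon models 3, 5, 7 and 8 held 24, 10, 12 and 10 reads. The part of this in the share was not tested.

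This share was looked at after the model values were seen, so it is given without a test. When it was restricted to the 4 between-exon models with reads in every library, it was 23.4% and 31.4% for the input libraries, 55.8% and 50.7% for masked TH59-DB, and 63.0% and 63.2% for TH59-DB, in the same order. Model 10, whose reads are uncertain, held 25.7% to 56.8% of the between-exon reads of a library. Without it the share was lower, at 21.3% and 27.9% with the input, 35.3% and 44.4% with masked TH59-DB, and 66.1% and 53.6% with TH59-DB, and the 3 groups still did not overlap. Of 159 genes with a spliced model and a model between exons, 102 had at least 500 reads over the libraries. Their median share was 9.50% and 11.5% for the input libraries, 12.9% and 11.1% for masked TH59-DB, and 25.3% and 15.1% for TH59-DB. TH59-DB lay above the input without overlap in 57.8% of the 102 genes and above masked TH59-DB in 49% of them, so that part of the Car1 pattern was common. It lay below them without overlap in 3.92% of the genes in each case. Masked TH59-DB lay above the input without overlap in 22.5% of the genes and below it in 13.7%. Between 8 and 23 of the 102 genes had a higher share than Car1 in a given library.

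**Figure D3:**
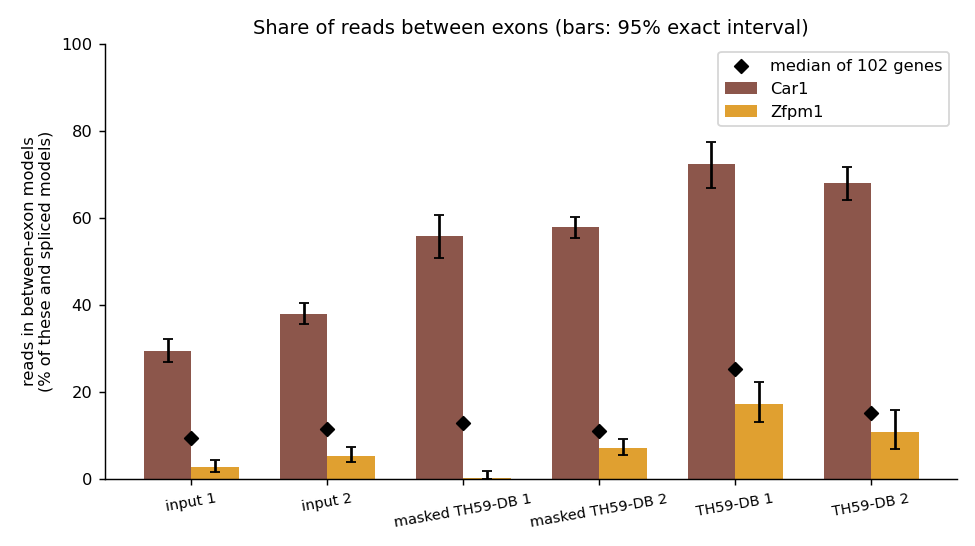
Share of reads in models between exons, as a percent of these and spliced models together, for Car1 and Zfpm1 in each library, with 95% exact intervals. Diamonds are the median of 102 genes; the Car1 bars go from 29.5% and 38.0% in the input to 72.4% and 68.0% in TH59-DB, and the diamonds are also highest in TH59-DB.

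Zfpm1 model 1 (chromosome 8, 122282361 to 122334601, plus strand, 1360 bases in 8 exons) stood at 181 and 237 CPM in the input, 163 and 250 CPM in masked TH59-DB, and 127 and 70.3 CPM in TH59-DB. Both TH59-DB libraries were below the other 4, and the input and masked libraries overlapped. The log2 fold change was -1.12 (SE 0.65) against the input, with an edgeR adjusted p of 0.524, and -0.89 (SE 0.64) against masked TH59-DB, with an edgeR adjusted p of 0.829.

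Zfpm1 model 5 (122334400 to 122334601) covers the last exon of model 1, with 148 bases in common, so the 2 models can share reads. It stood at 50.9 and 69.7 CPM in the input, 43.1 and 43.9 CPM in masked TH59-DB, and 22.7 and 6.18 CPM in TH59-DB. Here all 3 groups were apart, in the order seen for Car1 model 1. Its log2 fold change against the input was -2.23 (SE 0.65), with an edgeR adjusted p of 0.116, the lowest of any member in any comparison. Against masked TH59-DB it was -1.62 (SE 0.64), with an edgeR adjusted p of 0.365.

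Zfpm1 model 6 (122335425 to 122337153, 1729 bases) begins 823 bases beyond the last exon of model 1 and ends 709 bases before the end of the gene span. It stood at 135 and 168 CPM in the input, 67.0 and 117 CPM in masked TH59-DB, and 66.0 and 36.7 CPM in TH59-DB. The groups did not overlap, although masked TH59-DB 1 and TH59-DB 1 were close. The log2 fold change was -1.61 (SE 0.61) against the input, with an edgeR adjusted p of 0.240, and -0.65 (SE 0.60) against masked TH59-DB.

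The 3 Zfpm1 models between exons had at most 35 reads in a library. Model 2 (122284097 to 122284544) stood at 2.68 and 7.71 CPM in the input, 0 and 11.2 CPM in masked TH59-DB, and 8.32 and 3.86 CPM in TH59-DB. Model 3 (122314395 to 122314854) stood at 1.67 and 3.50 CPM, 0.507 and 7.69 CPM, and 9.42 and 1.93 CPM in the same order. Model 4 (122331419 to 122331678), which did not pass the filter on low counts, had 1 read in the masked libraries together and 16 and 7 reads in TH59-DB. Together the 3 held 2.70% and 5.32% of the Zfpm1 reads in spliced and between-exon models for the input libraries, 0.311% and 7.13% for masked TH59-DB, and 17.3% and 10.8% for TH59-DB. TH59-DB was again highest, but the masked value of 0.311% rests on 1 read, and the input and masked groups overlapped. With model 3 alone, the one with reads in every library, the share was 6.91% and 2.67% with TH59-DB and 0.311% and 2.98% with masked TH59-DB, so these groups overlapped too.

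The Gata1 models lay on chromosome X in single exons, all also within the span of the lncRNA Gm39488, and reads of the 2 genes cannot be told apart. Model 3 (7965514 to 7966057) was the only one with reads in all 6 libraries above 10, at 8.04 and 10.9 CPM in the input, 14.7 and 20.2 CPM in masked TH59-DB, and 8.32 and 12.0 CPM in TH59-DB. Masked TH59-DB was above both other groups, and input and TH59-DB overlapped. The log2 fold change was 0.69 (SE 0.83) for masked TH59-DB against the input and 0.28 (SE 0.83) for TH59-DB against the input.

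Gata1 model 1 (7963626 to 7963848) had 4 and 0 reads with the input, 0 and 7 reads with masked TH59-DB, and 15 and 10 reads with TH59-DB. Both TH59-DB libraries were above the other 4, with a log2 fold change of 2.61 (SE 1.99) against masked TH59-DB and an edgeR adjusted p of 0.850. The model passed the filter on low counts only through TH59-DB, at 8.32 and 3.86 CPM, as no other library was above 2.24 CPM. Its positive direction in the fit was therefore largely set by the filter. Gata1 model 2 (7963968 to 7964202) had 6 and 22 reads with the input, 0 and 37 reads with masked TH59-DB, and 10 and 17 reads with TH59-DB, and its groups overlapped.

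Car2 had 2 short models on chromosome 3. Model 1 (14886316 to 14886747) stood at 6.70 and 14.4 CPM in the input, 1.01 and 3.20 CPM in masked TH59-DB, and 8.87 and 4.25 CPM in TH59-DB. The masked libraries were below the other 4, in contrast to the spliced Car1 models, where TH59-DB was lowest. Its log2 fold change was -2.47 (SE 1.20) for masked TH59-DB against the input, with an edgeR adjusted p of 0.766, and 1.79 (SE 1.19) for TH59-DB against masked TH59-DB, with an edgeR adjusted p of 0.785. The masked values rest on 2 and 10 reads. Model 2 (14890464 to 14890631), left out by the filter on low counts, had 3 and 8 reads with the input, 0 and 4 reads with masked TH59-DB, and 14 and 2 reads with TH59-DB.

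The Ppox model (chromosome 1, 171280361 to 171280523, 163 bases) had 6 and 9 reads with the input, 0 and 54 reads with masked TH59-DB, and 20 and 5 reads with TH59-DB. As CPM these were 2.01 and 3.15, 0 and 17.3, and 11.1 and 1.93. Masked TH59-DB held both the lowest and the highest library, and each capture group had 1 library above and 1 below both input libraries. The log2 fold change of TH59-DB was -0.24 (SE 1.59) against masked TH59-DB and 1.09 (SE 1.65) against the input.

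On the per-length scale, among the spliced models, their 3′ neighbours in Zfpm1 and the Car2, Gata1 and Ppox models named here, the input libraries put Car1 model 1 first, at 418 and 540 FPKM. Car1 model 4 followed at 278 and 308 FPKM, inside the range of Zfpm1 model 5, at 252 and 345 FPKM, so these neighbours did not differ beyond their spread. Zfpm1 model 1 was at 133 and 174 FPKM and Zfpm1 model 6 at 78.3 and 97.4 FPKM, each apart from the one above. Far below, Car2 model 1 at 15.5 and 33.2 FPKM, Gata1 model 3 at 14.8 and 20.0 FPKM, Gata1 model 2 at 8.55 and 32.8 FPKM and the Ppox model at 12.3 and 19.3 FPKM overlapped. In TH59-DB the order was less clear, with Car1 model 1 at 69.4 and 98.3 FPKM and Zfpm1 model 1 at 93.4 and 51.7 FPKM overlapping.

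Across the members as a set, 21 of the 23 models passed the filter on low counts and were tested, and 0 passed an edgeR adjusted p of 0.05 in any of the 3 comparisons. With TH59-DB against masked TH59-DB, 1.41% of the 5385 tested models passed as higher. At an unadjusted edgeR p under 0.05, 1 member, Zfpm1 model 5, was lower in TH59-DB. Of all tested models, 91 were lower and 445 higher at that unadjusted p. The member log2 fold changes ran from -1.62 to 2.61 with a median of -0.13, against 0.30 for all tested models. With TH59-DB against the input, 3.58% of the tested models passed as higher and 0.0371% as lower. At an unadjusted edgeR p under 0.05, 4 members were lower in TH59-DB (Car1 models 1 and 4, Zfpm1 models 5 and 6). Of all 5385 tested models, 277 were lower at that unadjusted p. The member log2 fold changes against the input ran from -2.34 to 2.80, with a median of 0.03 for the members and for all models. With masked TH59-DB against the input, 0.26% of the tested models passed as higher. No member had an unadjusted edgeR p under 0.05, where 208 of all tested models were higher and 159 lower. The member median there was -0.18, against -0.26 for all models. DESeq2 called 0 members as well. Without masked TH59-DB 2, however, 5 of 23 members passed as higher in TH59-DB against masked TH59-DB, where 20.6% of all tested models did, and 4 of 23 as lower in masked TH59-DB against the input, where 14.0% did.

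**Figure D4:**
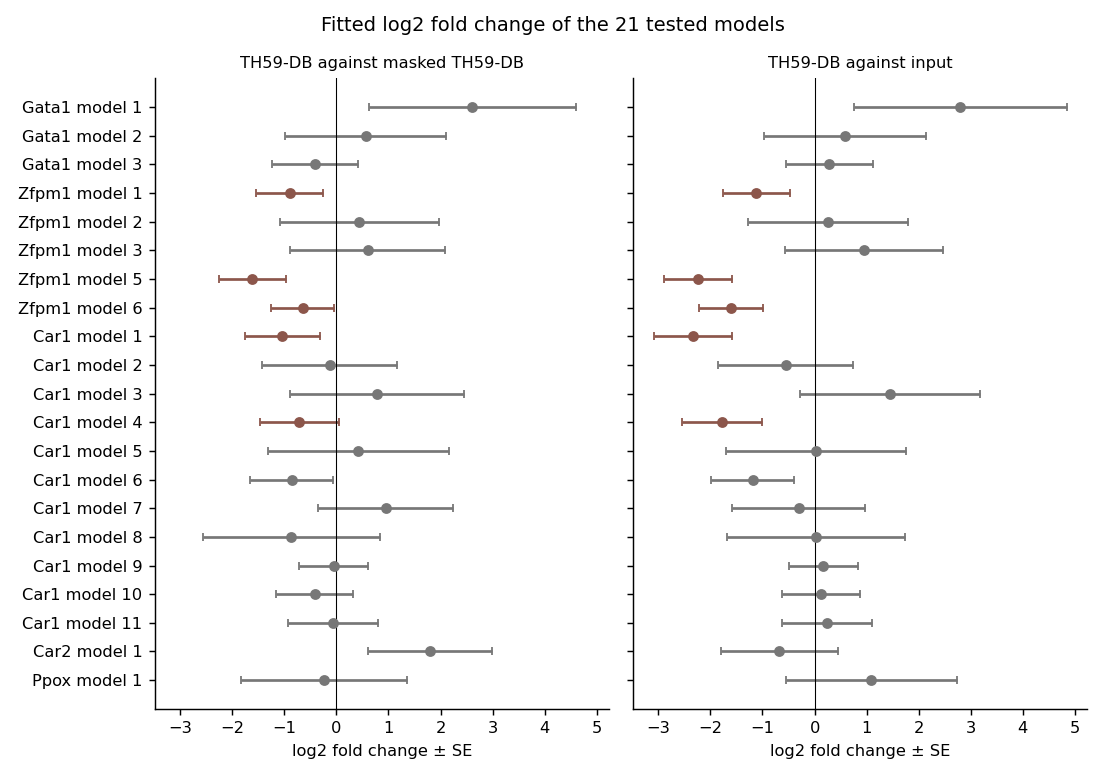
Fitted log2 fold change with its SE for the 21 tested models, for TH59-DB against masked TH59-DB (left) and against the input (right). Brown points are Car1 models 1 and 4 and Zfpm1 models 1, 5 and 6, which lie between -2.34 and -1.12 against the input, and grey points are the other models; both panels use the same TH59-DB libraries.

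In CPM not scaled by TMM, the groups did not overlap in some members, though no member passed the test. The TMM scaling factors of the fit differed within groups, at 0.892 and 1.34 for masked TH59-DB and 1.33 and 0.681 for TH59-DB. Groups that are apart in unscaled CPM can therefore overlap once scaled. Both TH59-DB libraries were below both masked libraries in 6 members (Gata1 model 3, Zfpm1 models 1, 5 and 6, Car1 models 1 and 4), where 9.94% of all models were, and above them in 3 (Gata1 model 1, Zfpm1 model 4, Car2 model 1), where 21.8% of all models were. Against the input, 7 members were lower without overlap in TH59-DB (Zfpm1 models 1, 5 and 6, Car1 models 1, 2, 4 and 6; 15.9% of all models) and 2 were higher (Gata1 model 1 and Zfpm1 model 4; 25.5%). Masked TH59-DB was below the input without overlap in 6 (Zfpm1 models 4, 5 and 6, Car1 models 1 and 4, Car2 model 1; 14.5%) and above it in 1 (Gata1 model 3; 11.1%).

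The direction of many models turned with the library number. TH59-DB was above masked TH59-DB in 14 of the 23 members among the libraries numbered 1 and in 3 of 23 among those numbered 2, while over all models the percentages were 84.8% and 25.0%. Those 3, Gata1 model 1, Zfpm1 model 4 and Car2 model 1, were above it in both numbers. The part of the 11 zeros in masked TH59-DB 1 and of the absence of low counts in TH59-DB 1 in these directions was not tested. The spliced Car1 models and Zfpm1 models 1, 5 and 6 were lower in TH59-DB than in masked TH59-DB in both numbers. So were Gata1 model 3 and the between-exon Car1 models 6, 10 and 11.

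Among the other genes of these pathways, with the 5 genes left out, 0 models passed in edgeR in any comparison, while DESeq2 called 1 transcription factor model between masked TH59-DB and the input and 0 models elsewhere. At an unadjusted p under 0.05 in edgeR, 1 of 33 transcription factor models was lower in TH59-DB against the input. In masked TH59-DB against the input, 2 were higher and 1 was lower. Of all 5385 tested models, 277 were lower in the first of these comparisons, and 208 were higher and 159 lower in the second. Fold changes here are log2 values for TH59-DB against masked TH59-DB, where the median over all tested models was 0.30. Of 15 other erythroid transcription factors 11 had a model, and the median of their 33 tested models was 0.81. Of 12 other heme synthesis genes 4 had a model, and the median of 5 tested models was 0.33. Cpox, the enzyme before Ppox in the pathway, stood at 64.0 and 137 CPM in the input, 78.6 and 81.0 CPM in masked TH59-DB, and 56.5 and 34.0 CPM in TH59-DB in its most abundant model, so TH59-DB was lowest. Of 14 other carbonic anhydrases, Car3 and Car14 had a model, and the median of 2 tested models was 1.89.

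Of 11 iron handling genes 5 had a model, and 4 models were tested, which went in both directions (median 0.15). Fth1, the ferritin heavy chain, stood at 214 and 395 CPM in the input, 99.5 and 209 CPM in masked TH59-DB, and 32.7 and 57.5 CPM in TH59-DB. Ftl1, the light chain, stood at 193 and 256 CPM in the input, 92.9 and 175 CPM in masked TH59-DB, and 36.0 and 48.3 CPM in TH59-DB. Both ferritin chains had the group order of the spliced Car1 models, without overlap. Over all models, TH59-DB was lower without overlap than masked TH59-DB in 9.94% and than the input in 15.9%. Masked TH59-DB was lower than the input without overlap in 14.5%. The share of all models with the full order of 3 groups was not counted. Their log2 fold changes were -1.30 and -1.26 against masked TH59-DB. Against the input they were -2.48 (SE 0.78) with an edgeR adjusted p of 0.148 and -2.24 (SE 0.72) with an edgeR adjusted p of 0.152. The other tested models, of Abcb10 and Steap3, were at 4.91 and 1.57 against masked TH59-DB, with 0 and 1 reads and 0 and 20 reads in the masked libraries. Of the 4 tested iron models, Abcb10 had an unadjusted edgeR p under 0.05 against masked TH59-DB and the ferritin chains had one against the input. At that p, 445 of all 5385 tested models were higher in TH59-DB against masked TH59-DB, and 277 were lower in TH59-DB against the input.

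Of 18 genes of the red cell membrane and the erythropoietin receptor 8 had a model, with a median of -0.33 over 22 tested models, of which 1 had an unadjusted p under 0.05 with the lower level in TH59-DB. Masked TH59-DB against the input also had 1 such lower membrane model. At that unadjusted edgeR p, 91 of all 5385 tested models were lower in TH59-DB against masked TH59-DB, and 159 were lower in masked TH59-DB against the input. Ermap, a red cell membrane protein, stood at 48.9 and 78.5 CPM in the input, 18.3 and 102 CPM in masked TH59-DB, and 39.9 and 23.9 CPM in TH59-DB. Add2, an adducin of the membrane skeleton, stood at 44.2 and 62.0 CPM, 29.9 and 58.3 CPM, and 24.9 and 21.2 CPM in the same order. In both genes TH59-DB lay below the input. The 3 tested models of other blood cell markers had a median of -0.06, and Laptm5, a lysosomal protein of white blood cells, had at most 25.9 CPM.

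The models most like a member were found by Pearson's r of log2(CPM + 1) over the 6 libraries, as a description of points that share library and depth. Car1 model 1 was closest to models in Pabpc1 (0.998), Eif5a (0.997) and Rps24 (0.995), which encode the poly(A)-binding protein, a translation factor and a ribosomal protein. Zfpm1 model 1 was closest to Pde4a (0.992), Cdc37 (0.988) and Macroh2a1 (0.986). Gata1 model 3 was closest to Tada2b (0.960), Setd2 (0.941) and Son (0.933). Nuf2 (0.991) and Hdlbp (0.986) were among the 3 closest to Car2 model 1, and Ccdc88b (0.991) and Mrpl23 (0.991) among the 3 closest to the Ppox model.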

How the data were processed

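The 6 RNA libraries came from a kit for stranded total RNA, per the labels' protocols. The submitters' processing notes name cutadapt, HISAT2, Cufflinks, featureCounts and mm10, without roles or versions. The authors deposited counts, which are whole reads per transcript model, and FPKM, which by the deposited values is the count per length and per library total. The totals were recovered from the FPKM. What they count is not given in the sources used here, nor is the strand setting of the counting. Models of libraries 1 and 2 were joined on all exons (7695) or on chromosome, first start and length (264, among them Zfpm1 model 1).

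All 6 libraries entered 1 edgeR 4.0.16 fit (R 4.3.3) with a group term, filterByExpr, the recovered totals with TMM factors, and robust quasi-likelihood F-tests, 2-sided, with Benjamini-Hochberg adjustment over the 5385 tested models. Residual degrees of freedom were 3 and the biological coefficient of variation was 0.702. The procedure was also run on simulated data, with less spread between libraries than here and no library like masked TH59-DB 1 or TH59-DB 1. That run therefore cannot show how the procedure behaves at the spread of these data. CPM in the text is not scaled by TMM. Intervals are exact binomial, from scipy 1.17.1.

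The members, the gene lists and the tests were chosen with earlier results of these data known. Every member was named; of each list the 2 most abundant tested models were looked at, and 3 like models per member, not all of which are printed. Library numbers were not taken as pairing: within-group differences correlated at 0.150 (input, masked), 0.120 (input, TH59-DB) and 0.0369 (masked, TH59-DB). Alternatives were DESeq2 1.42.0, its size factors, totals without TMM, no filter, the library number as a block, each library left out, the sums of model counts as library sizes, and, for the Car1 share, fewer models.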

Additional observations from a re-analysis of the deposited data

How the results depend on the processing

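The count of member models that passed stayed at 0 under each alternative except 2. With the library number as a replicate block, 2 of 21 passed as lower in TH59-DB against the input, where 2.19% of all models did, Car1 model 1 (log2 fold change -2.53, adjusted p = 0.0107) and Zfpm1 model 5 (-2.30, adjusted p = 0.0219). Without masked TH59-DB replicate 2, the lone masked library being assumed to vary like the others, 5 of 23 passed as higher against masked TH59-DB (Car1 models 2, 3 and 7, Zfpm1 model 2, Gata1 model 2), where 20.6% of all models did, and 4 of 23 as lower in masked TH59-DB against the input, where 14.0% did; the median of all models was then 5.10 in the first comparison. The library totals, the 2 libraries a group and counts under 10 in many members limit what could be told apart.

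Over all models, 76 passed between TH59-DB and masked TH59-DB, but 266 with DESeq2, 167 with its size factors, 155 without TMM, 155 with library sizes as model sums, 206 without the filter, 191 with the block, and 32 to 1720 with a library left out. Between TH59-DB and the input 195 passed, but 393 with DESeq2, 312 without the filter, 363 with the block, and 102 to 756 with a library left out. Between masked TH59-DB and the input 14 passed, but 112 with DESeq2, 57 with its size factors, 108 without TMM, 50 with model sums, 113 without the filter, 106 with the block, and 0 to 1413 with a library left out. DESeq2 size factors moved the median of all models from 0.30 to 0.51 and from 0.03 to 0.40 in the first 2 comparisons.

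Of 756 recomputed fold changes of members, 661 kept their sign and side of the threshold, 86 turned sign, 2 of these also coming to pass, and 9 came to pass with the same sign. Against masked TH59-DB, with DESeq2, its size factors and model sums, Car1 model 2 became 0.21, 0.17 and 0.081, Car1 model 9 became 0.11, 0.11 and 0.019, and Car1 model 11 became 0.12, 0.11 and 0.034; Ppox became 0.10 and 0.071 with the first 2. The block gave 0.62 for Car1 model 2 and 0.32 for Ppox. Against the input, Car1 models 5 and 8 became -0.092 and -0.13 without the filter, Car1 model 7 became 0.062 and 0.055 with DESeq2 and its size factors, and the block gave -0.14 and -0.018 for Car1 models 10 and 11. Totals without TMM gave -0.20 and -0.16 for Car1 models 10 and 11. Zfpm1 model 1 between masked TH59-DB and the input became 0.036, 0.036 and 0.044 with DESeq2, its size factors and model sums. In that comparison the block gave -0.73 for Gata1 model 2, totals without TMM gave 0.13 for Zfpm1 model 2 and 0.096 for Car1 model 5, and model sums gave 0.0040 for Car1 model 6. The cause was not tested.

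With each library left out in turn, the log2 fold changes that turned sign ranged, for TH59-DB against masked TH59-DB, from -0.40 to 7.04 for Gata1 model 2, -1.49 to 0.27 for Gata1 model 3, -0.60 to 6.76 for Zfpm1 model 2, -0.37 to 2.60 for Zfpm1 model 3, -1.11 to 7.70 for Car1 model 2, -0.34 to 6.78 for Car1 model 3, -2.44 to 0.17 for Car1 model 4, -0.63 to 5.85 for Car1 model 5, -0.80 to 8.19 for Car1 model 7, -1.97 to 5.69 for Car1 model 8, -0.97 to 0.59 for Car1 model 9, -2.11 to 0.45 for Car1 model 10, -1.86 to 0.87 for Car1 model 11 and -1.36 to 6.60 for Ppox model 1. For TH59-DB against input they ranged from -0.45 to 1.48 for Gata1 model 2, -0.96 to 1.17 for Gata1 model 3, -0.16 to 0.75 for Zfpm1 model 2, -1.40 to 0.16 for Car1 model 2, -0.50 to 0.53 for Car1 model 5, -2.14 to 0.75 for Car1 model 7, -0.44 to 0.19 for Car1 model 8, -0.88 to 0.97 for Car1 model 9, -1.70 to 1.18 for Car1 model 10 and -1.68 to 1.32 for Car1 model 11. For masked TH59-DB against input they ranged from -3.96 to 4.47 for Gata1 model 1, -6.44 to 0.97 for Gata1 model 2, -0.38 to 0.093 for Zfpm1 model 1, -6.56 to 0.77 for Zfpm1 model 2, -1.76 to 1.19 for Zfpm1 model 3, -8.21 to 0.57 for Car1 model 2, -5.44 to 2.09 for Car1 model 3, -5.89 to 0.57 for Car1 model 5, -0.92 to 0.46 for Car1 model 6, -5.78 to 1.87 for Car1 model 8, -0.055 to 1.03 for Car1 model 11 and -5.63 to 2.33 for Ppox model 1. The models not listed for the TH59-DB comparisons kept their sign with each library left out. In both comparisons these were Gata1 model 1, Zfpm1 models 1, 5 and 6, Car1 models 1 and 6, and Car2 model 1. Against the input they also included Zfpm1 model 3, Car1 models 3 and 4, and Ppox model 1. Gata1 model 1 stayed positive, at 1.71 to 6.77 against masked TH59-DB and 1.73 to 6.97 against the input. It entered the test only through its TH59-DB libraries, so this sign was largely set by the filter on low counts. Car1 model 1 ranged from -3.57 to -1.46 against the input and from -2.14 to -0.31 against masked TH59-DB.

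The mean share of Car1 reads between exons was 27.4% in the input, 53.2% in masked TH59-DB and 63.1% in TH59-DB when only models with reads in every library were counted, and 24.6%, 39.8% and 59.9% without Car1 model 10. These alternatives and the model sums were chosen after seeing the data. The span rule gave 23 members under both alternatives.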
